A study of Rattus norvegicus with 23 samples.

Results

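The genes described here are the 10 protein-coding members of the mitochondrial genome that make subunits of respiratory complexes I and IV. They were taken by Ensembl identifier from the 32494 genes listed for each library. Complex I contributes 7 of them, Mt-nd1, Mt-nd2, Mt-nd3, Mt-nd4, Mt-nd4l, Mt-nd5 and Mt-nd6, and complex IV contributes 3, Mt-co1, Mt-co2 and Mt-co3. By these names every member lies on the mitochondrial chromosome. The names go with the identifiers through the list that defined the set. Neither the deposited files nor the reference table used here pairs them, so the pairing could not be checked against an annotation.

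RNA came from 3D aggregates of brain cells of Sprague Dawley rat embryos (embryonic day 15), kept for 14 days in agitated culture. Aggregates received sepiapterin at 120 ng/ml or, as controls, PBS (phosphate-buffered saline), with 3 libraries each after 6, 12 and 24 hours (T6, T12 and T24) and a further 3 control libraries at 0 hours (T0). Sepiapterin is a pteridine that cells turn into tetrahydrobiopterin, a cofactor of aromatic amino acid hydroxylases and of nitric oxide synthases, and the series asks about early treatment of phenylketonuria with that cofactor. Of the T12 controls, 2 samples, numbered 10 and 11, were by their titles each sequenced from a pair of libraries, which brings the number of libraries to 23. All groups share strain, embryonic age and culture time, and the labels name no genetic change. The labels do not say whether the replicates of a group were separate cultures, so p-values here measure the spread between libraries of a group, which may be technical.

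Complex I (NADH:ubiquinone oxidoreductase) takes electrons from NADH and complex IV (cytochrome c oxidase) hands them to oxygen, and both pump protons across the inner mitochondrial membrane. Each complex combines subunits encoded in the nucleus with a hydrophobic core encoded in mitochondrial DNA. In mammals the mitochondrial genome is transcribed from both strands as long precursors that are cut at the tRNAs into individual RNAs. Mt-nd6 is the protein-coding gene transcribed from the opposite strand to the other members, and in human cells its mRNA is known to lack a poly(A) tail, while the libraries were made with a stranded mRNA kit, which selects polyadenylated RNA. Neurons depend heavily on oxidative phosphorylation for ion pumping and synaptic transmission. In bulk samples such as these, fewer cells of a type and less RNA per cell cannot be told apart.

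The libraries held 16991417 to 26588314 reads in genes. For samples 10 and 11 the titles disagree with the headers inside the deposited files, in that the libraries titled 10 and 11 carry the headers of the repeats (10b and 11b) and the reverse. Values are by title unless stated, and the value by file header is given where it changes a call or the sign of a value printed here. By the labels' protocols T6 and T12 libraries were made in the first batch and T24 libraries with the 2 repeats in the second. If the titles are right, sepiapterin and control libraries of the same time thus share a batch. Batch and time then cannot be told apart between T24 and earlier times except against the repeats. If the file headers are right, the controls titled 10 and 11 are the second-batch repeats. Values by title then mix batch with treatment at T12 and with time between T12 and T6 controls. Which batch held the T0 libraries is not stated. The identifiers of neuronal, glial and other cell type markers could not be paired with names, so the tissue label was not checked against them.

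Together the 10 genes took 1.72 to 2.56% of the reads in genes. Mt-co1 (ENSRNOG00000034234), the subunit that holds the oxygen-reducing site of complex IV, had 133843 to 251146 reads per library and ranked first or second among all genes by reads in every library. Mt-co2 (ENSRNOG00000030371), which receives electrons from cytochrome c, had 45557 to 99284 reads, and Mt-co3 (ENSRNOG00000030700), the remaining core subunit, had 47644 to 93124 reads. Reads per gene grow with transcript length, and no lengths of these transcripts were available from the sources used here, so read numbers are not levels that can be compared between members.

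Among the complex I members, Mt-nd1 (ENSRNOG00000030644), next to the ubiquinone site, had 29889 to 60592 reads per library. Mt-nd2 (ENSRNOG00000031033) and Mt-nd5 (ENSRNOG00000029971), antiporter-like subunits of the membrane arm, had 31459 to 65812 and 14964 to 31025 reads. The small membrane subunits Mt-nd3 (ENSRNOG00000033615) and Mt-nd4l (ENSRNOG00000031053) had 3279 to 6854 and 1288 to 2382 reads, and Mt-nd6 (ENSRNOG00000029042) had 144 to 358. The strand setting of the authors' counting is not stated, so reads from the strand opposite Mt-nd6 cannot be told from its own. Mt-nd4 (ENSRNOG00000029707), another antiporter-like subunit, was the exception. Its identifier had 0 to 4 reads per library, 8 reads over all 23 libraries and reads in 4 of them, while Mt-nd4l, which in mammals shares an mRNA with Mt-nd4, was counted in all. The deposited counts leave out reads that align to several places, which were 23.5 to 24.99% of alignments, and their part in the Mt-nd4 value was not tested. Mt-nd4 did not pass the filter on low counts and is in no test, so the results below are about 9 of the 10 members, all of which had reads in every library.

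Levels are given as CPM, read counts divided by a TMM-scaled library size, which takes out differences in depth and overall composition between libraries. Mt-co1 averaged 9703 ± 814 CPM in T0 controls. At T6 it averaged 9532 ± 344 CPM in sepiapterin libraries and 9019 ± 568 CPM in controls, and at T12 9736 ± 853 CPM in sepiapterin libraries and 9382 ± 357 CPM in controls. At T24 it averaged 9339.9 ± 835 CPM in sepiapterin libraries and 8234 ± 1007 CPM in controls (SD, n = 3 in each group). Its T24 controls had the lowest mean of the 8 groups and also the widest spread. Mt-co2 averaged 3648 ± 244 CPM in T0 controls. At T6 it averaged 3596 ± 262 CPM in sepiapterin libraries and 3508 ± 221 CPM in controls, and at T12 3853 ± 312 CPM in sepiapterin libraries and 3532 ± 52.5 CPM in controls. At T24 it averaged 3665 ± 475 CPM in sepiapterin libraries and 2728 ± 225 CPM in controls. Again T24 controls had the lowest mean, and for these genes the T12 repeats had 8846 ± 204 CPM (Mt-co1) and 3442 ± 160.2 CPM (Mt-co2; SD, n = 2). Mt-co3 had group means between 3748 CPM in T24 sepiapterin libraries and 2872 CPM in T24 controls.

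Among complex I members, group means of Mt-nd1 lay between 2402 CPM in T24 sepiapterin libraries and 1815 CPM in T24 controls, and those of Mt-nd2 lay between 2581 CPM in T24 sepiapterin libraries and 1936 CPM in T24 controls. The Mt-nd5 means lay between 1256 CPM in T24 sepiapterin libraries and 922 CPM in T24 controls. Sepiapterin libraries at T24 thus hold the highest mean and controls at T24 the lowest mean of each of these genes. Mt-nd3 averaged 270.5 ± 39.2 CPM in T0 controls. At T6 it averaged 236 ± 6.89 CPM in sepiapterin libraries and 234 ± 12.9 CPM in controls, and at T12 253 ± 4.16 CPM in sepiapterin libraries and 278 ± 10.2 CPM in controls. At T24 it averaged 280.2 ± 48.8 CPM in sepiapterin libraries and 200.4 ± 20.7 CPM in controls, with its highest means in T24 sepiapterin libraries and T12 controls. Mt-nd4l means lay between 109 CPM in T24 sepiapterin libraries and 76.0 CPM in the T12 repeats. Mt-nd6 had another order, with means between 7.43 CPM in the T12 repeats and 13.7 CPM in T12 controls, and its SD was widest in T12 controls, at 3.42 CPM. Of the 63 pairs of neighbours in these orders over the 9 genes, 11 differed by more than the larger of the 2 SDs. In Mt-nd1, Mt-nd2, Mt-nd3, Mt-nd5, Mt-co2 and Mt-co3 this was the step up from T24 controls. The others were the T24 sepiapterin mean of Mt-nd4l above the next group, the step between T12 and T6 sepiapterin libraries in Mt-nd2 and Mt-nd3, and 2 steps of Mt-nd6.

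At 24 hours most of the mitochondrially encoded subunits were higher in sepiapterin aggregates than in controls. Of the 9 members tested, 6 passed the test as higher and 0 as lower (edgeR quasi-likelihood test, Benjamini-Hochberg adjusted p under 0.05 over all 14035 genes tested), where 2.07% of all genes were called higher and 2.09% lower. The 6 were Mt-nd1, Mt-nd3, Mt-nd4l and Mt-nd5 of complex I and Mt-co2 and Mt-co3 of complex IV. Across libraries the members other than Mt-nd6 followed each other (median Pearson's r 0.851 over 28 pairs), so these calls are not independent of each other. All 9 had an unadjusted p under 0.05, Mt-nd6 with a value below 0, as did 2870 of the 14035 genes tested. The median log2 fold change of the 9 members was 0.41, against 0.0065 over all genes tested, a value that scaling holds near 0. Of all genes, 6.3% had an absolute log2 fold change at least as large as the members' median absolute value.

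Mt-co2 stood at 4099, 3739 and 3158 CPM in sepiapterin aggregates and 2977, 2538 and 2669 CPM in control aggregates. All 3 sepiapterin libraries lay above all 3 controls. Its log2 fold change was 0.43 ± 0.084 (SE, n = 3 each), a 1.34-fold higher level with an edgeR adjusted p of 0.013, the smallest among the members. Mt-co3 stood at 4202, 3709 and 3332 CPM in sepiapterin aggregates and 3189.5, 2682 and 2744 CPM in control aggregates, again without overlap, a log2 fold change of 0.38 ± 0.083 (edgeR adjusted p 0.018). Mt-co1, the catalytic subunit of the same complex, did not pass the test. It stood at 10243, 9182 and 8595 CPM in sepiapterin aggregates and 9395, 7598 and 7709 CPM in control aggregates, and the groups overlapped because control replicate 1 lay above sepiapterin replicates 2 and 3. Its log2 fold change was 0.18 ± 0.083 (edgeR adjusted p 0.22).

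In complex I, Mt-nd5 stood at 1449.9, 1265 and 1051 CPM in sepiapterin aggregates and 1021, 883 and 862 CPM in control aggregates, with no overlap and a log2 fold change of 0.44 ± 0.094 (SE, edgeR adjusted p 0.019). Mt-nd1 stood at 2666, 2479.8 and 2061 CPM in sepiapterin aggregates and 2024, 1699 and 1721 CPM in control aggregates. These groups did not overlap either, though sepiapterin replicate 3 lay just above control replicate 1, and the log2 fold change was 0.40 ± 0.11 (edgeR adjusted p 0.040). Mt-nd2 had a fold change of like size, 0.41 ± 0.11 on the log2 scale, but missed the threshold with an edgeR adjusted p of 0.052. It stood at 2938, 2655 and 2151 CPM in sepiapterin aggregates and 2229.8, 1767 and 1812 CPM in control aggregates, so that sepiapterin replicate 3 lay below control replicate 1.

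The small subunits Mt-nd3 and Mt-nd4l, which in mammals lie in the membrane arm close to its junction with the peripheral arm, had the highest fitted fold changes. Mt-nd3 stood at 322, 293 and 226 CPM in sepiapterin aggregates and 224, 188 and 189 CPM in control aggregates, a 1.40-fold higher level (log2 fold change 0.48 ± 0.11, edgeR adjusted p 0.024). Mt-nd4l stood at 126, 110.0 and 91.7 CPM in sepiapterin aggregates and 86.5, 72.4 and 74.2 CPM in control aggregates, a 1.40-fold higher level (log2 fold change 0.49 ± 0.13, edgeR adjusted p 0.048). Neither gene overlapped between the groups, and for Mt-nd3 the gap between sepiapterin replicate 3 and control replicate 1 was small beside the spread within either group. Mt-nd6 was the member with a fitted value below 0, at -0.35 ± 0.17 on the log2 scale with an edgeR adjusted p of 0.24. It stood at 8.25, 8.82 and 11.6 CPM in sepiapterin aggregates and 13.0, 12.5 and 11.2 CPM in control aggregates, and the groups overlapped.

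**Figure D1:**
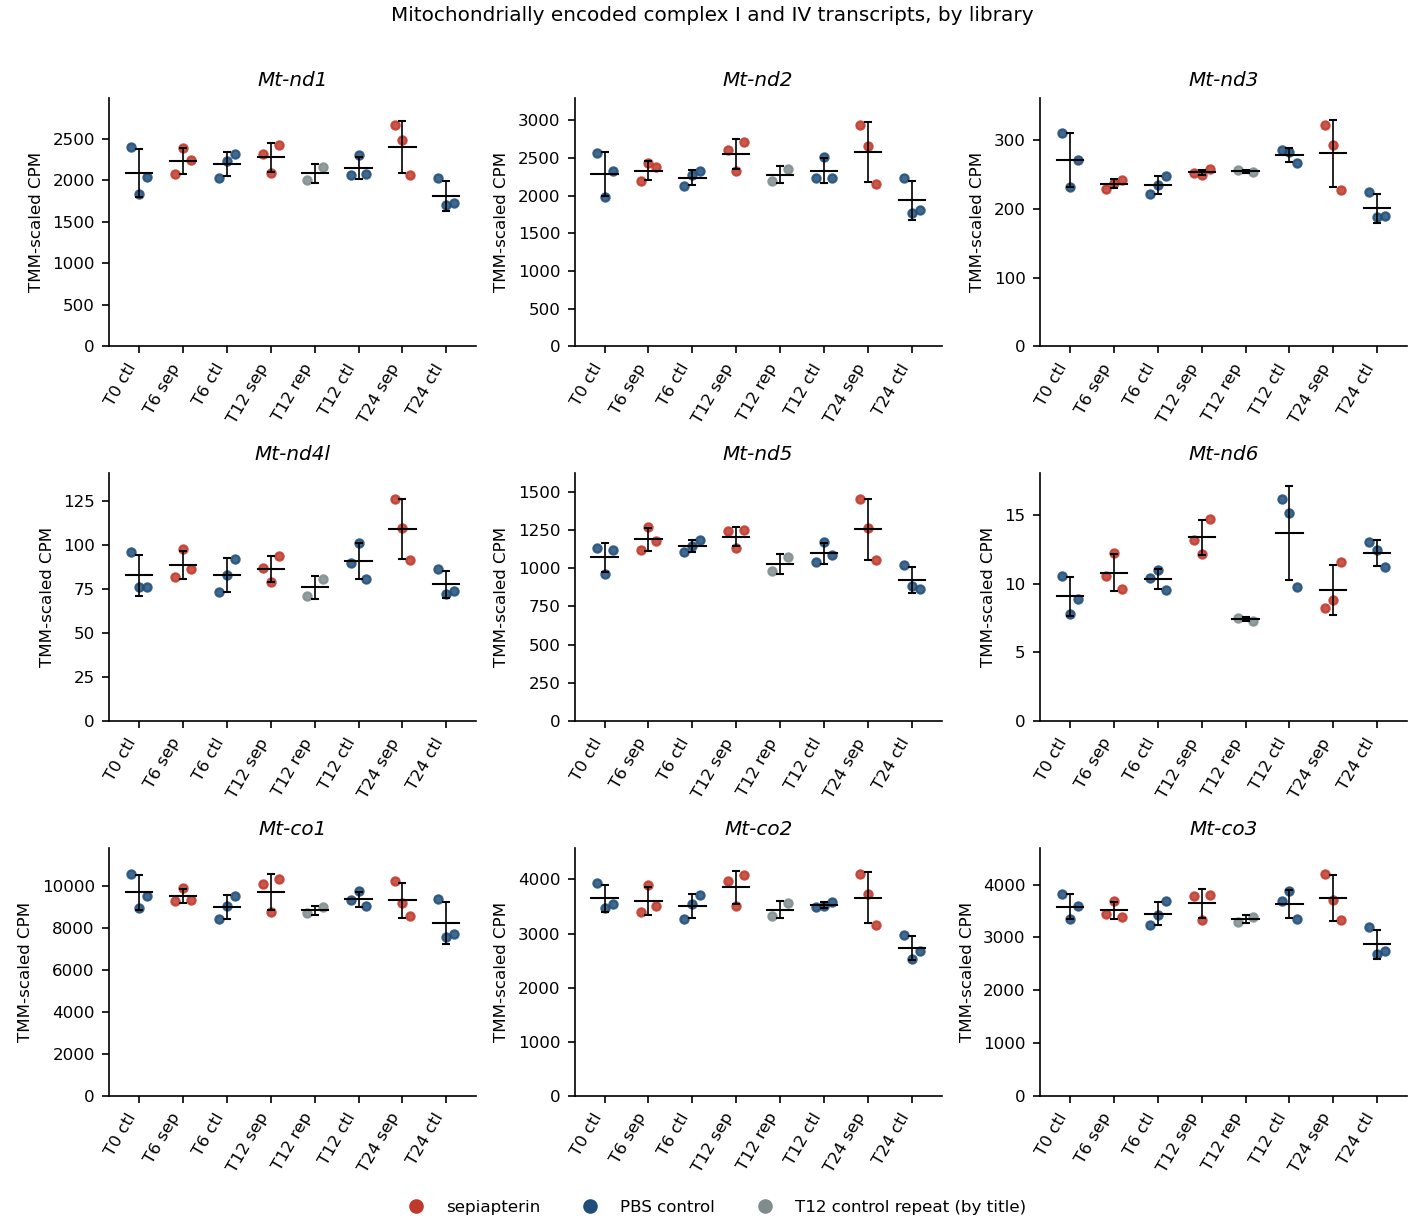
TMM-scaled CPM (vertical axes, from 0) of the 9 tested members in each of the 23 libraries, by group (horizontal axes: sep, sepiapterin; ctl, PBS control; rep, T12 control repeat by title). Points are libraries, and bars show the mean ± SD. In 8 panels the T24 sepiapterin mean lies above the T24 control mean, while for Mt-nd6 it lies below.

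Across genes, 11.5% had all 3 sepiapterin libraries above all 3 controls at T24, and 6 of the 9 members did, the same genes that passed the test. The calls leaned on single libraries, among the members and over all genes, of which 585 were called with all libraries. Without T24 sepiapterin replicate 1, sepiapterin replicate 2, control replicate 2 or control replicate 3, 0 members were called. These fits called 11, 53, 87 and 117 genes. Without sepiapterin replicate 3 the number was 7 members, among 1463 genes called. Without control replicate 1 it was 6 members, among 226 genes called, with Mt-nd2 in place of Mt-nd4l. The median log2 fold change of the 6 members was 0.33 without sepiapterin replicate 1 and 0.54 without sepiapterin replicate 3, against 0.44 with all libraries. Depth and mapping overlapped between the groups. Reads in genes were 17746285, 16991417 and 19369187 in sepiapterin libraries and 19018553, 18167216 and 17693252 in controls, and alignments to several places made up 24.6, 24.8 and 24.0% in sepiapterin libraries and 24.3, 24.2 and 24.0% in controls. Their part in the result was not tested. Fitted on the 6 T24 libraries alone, 2 members were called, Mt-co2 and Mt-co3, among 196 genes. With T12 controls by file header or with the pairs summed, which alter the shared estimate of spread, Mt-nd2 was called as well, with edgeR adjusted p-values of 0.044 and 0.043. Those 2 fits called 818 and 809 genes.

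As a share of all reads in genes, the 10 members took 2.56, 2.30 and 2.06% in T24 sepiapterin libraries and 2.08, 1.72 and 1.75% in T24 controls. Sepiapterin replicate 1 had the highest share of the 23 libraries, and control replicates 2 and 3 had the lowest shares. Sepiapterin replicate 3 lay below control replicate 1, so the groups overlapped in this sum. The complex I members together had 7510.1, 6811 and 5593 CPM with sepiapterin and 5599, 4622 and 4669.6 CPM in controls, and the complex IV members 18544, 16629 and 15085 CPM with sepiapterin and 15561, 12818 and 13122 CPM in controls. In the other groups the share ran from 2.05 to 2.51%.

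The balance between members also differed at T24. Mt-co1 took 39.3, 39.2 and 41.6% of the 10 members' reads in sepiapterin libraries and 44.4, 43.6 and 43.3% in controls, without overlap, a ratio within each library that does not depend on scaling. In the 17 libraries of the other groups it took 40.8 to 43.0%. The share of Mt-nd3 was 1.23, 1.25 and 1.09% with sepiapterin and 1.06, 1.08 and 1.06% in controls, and that of Mt-nd6 was 0.0317, 0.0376 and 0.0562% with sepiapterin and 0.0616, 0.0715 and 0.0631% in controls. These shares are a description and were not tested.

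**Figure D2:**
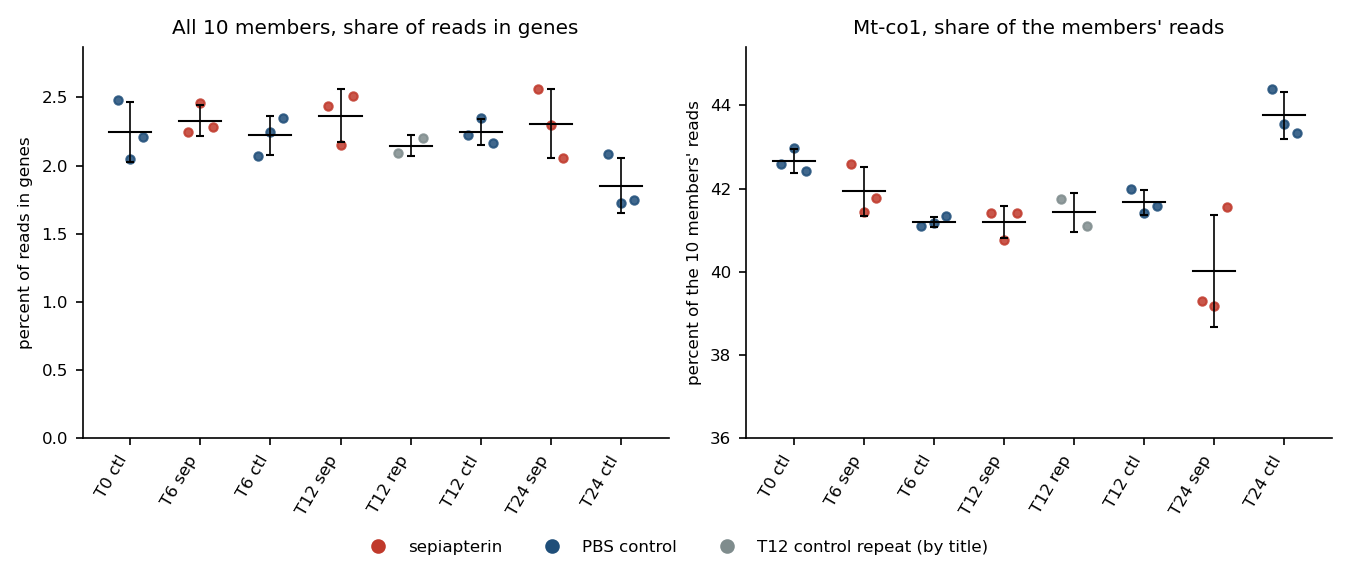
Left, share of reads in genes taken by the 10 members together (percent, axis from 0); right, share of the members' reads taken by Mt-co1 (percent, axis not from 0). Points are libraries by group, bars the mean ± SD. T24 control replicates 2 and 3 have the lowest shares on the left, the 3 T24 controls have the highest on the right, and T24 sepiapterin replicates 1 and 2 have the lowest Mt-co1 shares.

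At 6 hours no member passed the edgeR test between sepiapterin and control aggregates, in a comparison where 0% of all genes were called, 301 genes had an unadjusted p under 0.05 and DESeq2 called 0. The 9 log2 fold changes ran from 0.017 for Mt-nd3 to 0.099 for Mt-nd4l, with a median of 0.056, and 0 members had an unadjusted p under 0.05. Mt-co2 stood at 3393, 3892 and 3502 CPM with sepiapterin and 3270.1, 3546 and 3708 CPM in controls, groups that overlapped. Mt-nd6 stood at 10.6, 12.2 and 9.62 CPM with sepiapterin and 10.4, 11.0 and 9.57 CPM in controls, which also overlapped. With standard errors of 0.083 to 0.16 on the log2 scale, the fitted value of each of the 9 members lay within 1 standard error of 0 at T6.

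At 12 hours no member passed the test either, against 0.0214% of all genes. Of the 14035 genes tested, 2231 had an unadjusted p under 0.05, as did 0 members, and DESeq2 called 227 genes. The median log2 fold change of the 9 members was 0.057, with 6 above 0 and 3 below, and the smallest edgeR adjusted p was 0.47, for Mt-co2. Mt-co2 stood at 3968, 3501 and 4091 CPM with sepiapterin and 3489, 3517 and 3591 CPM in controls, groups that overlapped, with a log2 fold change of 0.13 ± 0.084. Mt-nd5 had a log2 fold change of 0.14 ± 0.094, Mt-nd2 of 0.13 ± 0.11 and Mt-nd1 of 0.083 ± 0.10. Mt-co1 and Mt-co3 stood closer to 0, at 0.057 ± 0.083 and 0.0039 ± 0.083, and Mt-nd4l at -0.064 ± 0.13. For Mt-nd3 all sepiapterin libraries lay below all controls, at 251, 249 and 257 CPM against 285, 282 and 266 CPM, as 11.7% of all genes did, with a log2 fold change of -0.13 ± 0.11 (edgeR adjusted p 0.58). This separation held by title only. By file header the controls are the libraries with 256 and 253 CPM and the one with 266 CPM, the groups overlapped and the value was -0.030, the one member then below 0.

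The T12 result for Mt-nd6 turned on which libraries are the controls. By title it stood at 13.2, 12.2 and 14.8 CPM with sepiapterin and 16.2, 15.2 and 9.80 CPM in controls, a log2 fold change of -0.026 ± 0.15. The controls titled 10 and 11 were the high ones and the control titled 12 was the low one. The libraries titled as repeats of samples 10 and 11 had 7.54 and 7.32 CPM. With T12 controls taken by file header, these libraries become the controls, the log2 fold change was 0.70 ± 0.13 and Mt-nd6 passed the test as higher with sepiapterin (edgeR adjusted p 0.042), the one member to do so. That fit called 10 genes, against 3 by title. With the pair of libraries of each sample summed, the log2 fold change of Mt-nd6 was 0.28 and did not pass. Mt-nd4l changed sign in the same way, to 0.16 by file header, without passing the test. For both genes the sign at T12 depends on the grouping.

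**Figure D3:**
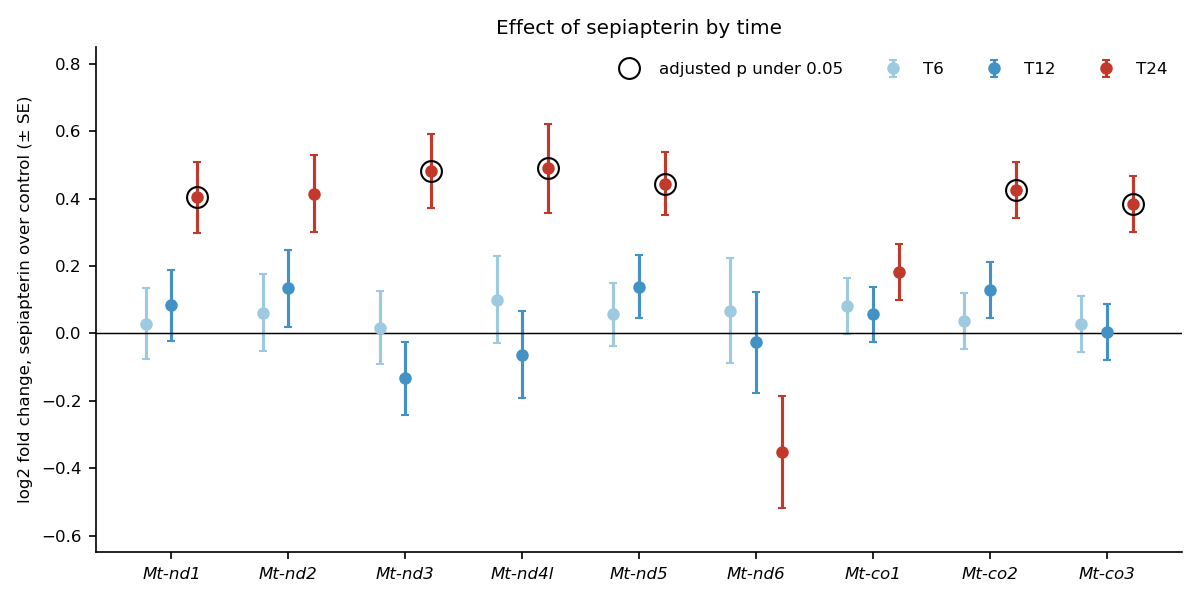
Log2 fold change of sepiapterin over control (vertical axis, ± SE) for the 9 tested members (horizontal axis) at T6, T12 and T24, with T12 controls by title. Circled points have an adjusted p under 0.05. All 6 circled points are at T24, where 8 members lie above 0 and Mt-nd6 lies below.

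By title, the edgeR test of the difference between times did not place the sepiapterin effect at T24 apart from the earlier ones for any member. For T24 minus T6, 0 of the 9 members and 0% of all genes were called by edgeR (1662 genes had an unadjusted p under 0.05, and DESeq2 called 34), with 6 members at an unadjusted p under 0.05 and a median difference of 0.38 on the log2 scale. The smallest adjusted p was 0.21, for Mt-co2, whose difference was 0.39 ± 0.12. For T24 minus T12, 0 members and 0.235% of all genes were called by edgeR. An unadjusted p under 0.05 was reached by 1798 genes and again by 6 members. DESeq2 called 163 genes, some of the members among them. Mt-nd3 had a difference of 0.61 ± 0.15 (edgeR adjusted p 0.096) and Mt-co3 of 0.38 ± 0.12 (edgeR adjusted p 0.16). By file header, where 143 genes were called, Mt-nd6 passed that test with a difference of -1.06, against -0.32 ± 0.22 by title. Without T24 sepiapterin replicate 3 the test called 5 members for T24 minus T12 and 4 for T24 minus T6. It then called 567 and 372 genes, against 33 and 0 with all libraries. For T12 minus T6, 0% of all genes and 0 members were called by edgeR, with 1049 genes and 0 members at an unadjusted p under 0.05, and DESeq2 called 0 genes.

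Averaged over the 3 times, 8 of the 9 members lay above 0 with a median log2 fold change of 0.17, and 0 passed the test, where 1.03% of all genes did. At an unadjusted p under 0.05 were 7 members and 2472 of the 14035 genes tested. By file header Mt-nd6 too lay above 0, at 0.14. Mt-co2 and Mt-nd5 came nearest to the threshold, with log2 fold changes of 0.20 ± 0.048 and 0.21 ± 0.054 and edgeR adjusted p-values of 0.051 and 0.061. DESeq2 called 3 members, and so did edgeR without T24 sepiapterin replicate 3. Those fits called 459 and 446 genes, against 144 with edgeR on all libraries.

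In control aggregates no member passed the test over the first 12 hours. Between T6 and T0, 0 of 9 members were called, where 21.6% of all genes were. Their median log2 fold change was -0.025, from -0.20 ± 0.11 for Mt-nd3 to 0.19 ± 0.16 for Mt-nd6. Mt-co1 stood at 9019 ± 568 CPM at T6 and 9703 ± 814 CPM at T0 (SD, n = 3 each). Between T12 and T6 controls 0 members were called by title, against 4.67% of all genes, with a median of 0.050. The 2 members Mt-nd6 and Mt-nd3 had an unadjusted p under 0.05, as did 2998 of the 14035 genes tested, a like share. Mt-nd6 had the highest fitted value there, 0.39 ± 0.15 (edgeR adjusted p 0.14), and by file header its value was -0.34, again with no call. Mt-nd4l, Mt-co1, Mt-co2 and Mt-co3, at 0.12, 0.050, 0.0037 and 0.071 by title, also lay below 0 by file header, so that 7 of the 9 members did there, against 2 by title. Without T12 control replicate 3, 1 member was called, in a fit that called 1398 genes, against 655 with all libraries. Mt-nd3 stood at 285, 282 and 266 CPM in T12 controls and 221, 234 and 247 CPM in T6 controls, without overlap, as 16.2% of all genes did, a log2 fold change of 0.24 ± 0.11 (edgeR adjusted p 0.21).

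Sepiapterin libraries at T12 and T6, which share the first library batch by label and do not involve samples 10 and 11, gave no call either. None of the 9 members was called by edgeR between T12 and T6, where 4.37% of all genes were. An unadjusted p under 0.05 was reached by 0 members and 2969 of the 14035 genes tested. DESeq2 also called 0 members. Mt-nd6 had the highest fitted value, at 0.30 ± 0.15 on the log2 scale (edgeR adjusted p 0.26), with 13.2, 12.2 and 14.8 CPM at T12 and 10.6, 12.2 and 9.62 CPM at T6, which overlapped. Mt-nd3 stood at 251, 249 and 257 CPM at T12 and 229, 238 and 242 CPM at T6, without overlap, as 16.2% of all genes did, with a log2 fold change of 0.091 ± 0.11 (edgeR adjusted p 0.68).

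T24 controls were compared with the 2 T12 controls titled as repeats, which were made in the same batch if the titles are right. Of the 9 members, 7 had a fitted value below 0, and none of the 7 passed the test. The median log2 fold change of the 9 members was -0.20, against -0.0048 over all genes tested, a value that scaling holds near 0. Of all genes, 22.0% had an absolute log2 fold change at least as large as the members' median absolute value. Mt-co2 stood at 2977, 2538 and 2669 CPM in T24 controls and 3329 and 3556 CPM in the T12 repeats, a log2 fold change of -0.34 ± 0.095 (edgeR adjusted p 0.062). Mt-co3 and Mt-nd3 had log2 fold changes of -0.22 ± 0.089 and -0.35 ± 0.14 (edgeR adjusted p 0.15 and 0.20), and for these 3 members all T24 controls lay below both repeats, as 22% of all genes did.

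Mt-nd6 went the other way and was the 1 member called, in a comparison where 5.54% of all genes were called. It stood at 13.0, 12.5 and 11.2 CPM in T24 controls and 7.54 and 7.32 CPM in the T12 repeats, a log2 fold change of 0.72 ± 0.14 (edgeR adjusted p 0.0074). By file header, with the libraries titled 10 and 11 as the repeats, the value was -0.35. Mt-nd4l likewise had -0.30 by file header and 0.029 by title, so that by file header all 9 members lay below 0. In that grouping 0 members and 79 genes were called. By title and without T24 control replicate 1, 3 members were called, in a fit that called 1208 genes, against 757 with all libraries. The edgeR adjusted p of Mt-nd6 was 0.14 and 0.099 without repeat 1 and repeat 2, in fits where the lone repeat is assumed to vary like the other groups.

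The pairs of libraries of samples 10 and 11 show how far the members move between library preparations of the same sample. Libraries titled as repeats had lower values than the other library of the same sample for all 9 members, and 8 passed the test with sample number as a block, where 9.85% of all genes were called lower. This fit has 1 residual degree of freedom, and its standard errors reflect technical spread only. Mt-nd6 had 153 and 149 reads in the repeats and 332 and 297 in the other libraries, a 2.10-fold lower level (log2 fold change -1.07 ± 0.11, edgeR adjusted p 3.9e-21). Mt-nd4l followed at -0.33 ± 0.041, Mt-co3 at -0.17 ± 0.017 and Mt-nd3 at -0.15 ± 0.027. Mt-co1 and Mt-nd5 had -0.11 ± 0.016 and -0.10 ± 0.020, Mt-nd1 and Mt-nd2 had -0.067 ± 0.018 and -0.056 ± 0.018, and Mt-co2, at -0.023 ± 0.017, did not pass. By file header the repeats are the other libraries, and every sign here is reversed. Without the block 5 members and 988 genes were called, against 2527 genes with it.

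**Figure D4:**
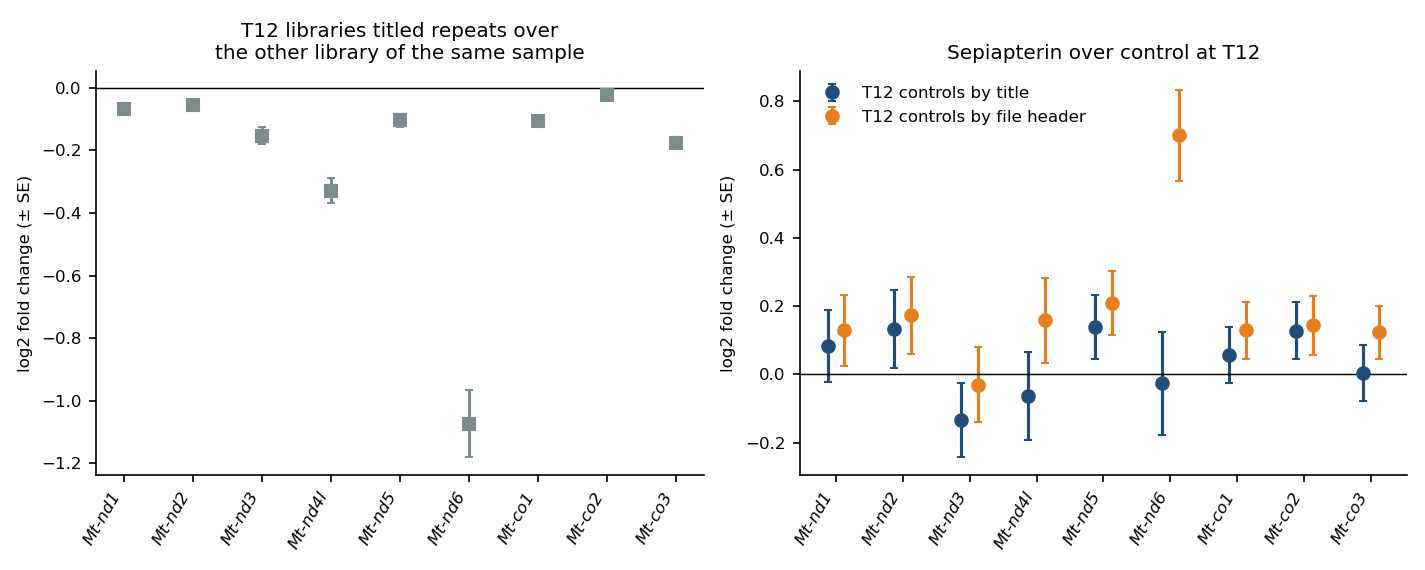
Left, log2 fold change (± SE) of the T12 libraries titled as repeats over the other library of the same sample, for the 9 tested members. Right, log2 fold change of sepiapterin over control at T12 (± SE) with controls taken by title or by file header. Mt-nd6 is the lowest point on the left, and on the right it has the widest gap between the groupings.

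Within groups the members varied by 0.110 (Mt-co1) to 0.214 (Mt-nd6) log2 units (SD pooled over the 8 groups of libraries), against a median of 0.102 over 14180 genes. Across the 23 libraries, 8 of the members followed each other. Pearson's r of log2 CPM ran from 0.614 to 0.959 over their 28 pairs, with a median of 0.851. Mt-nd6 did not follow the others, with r from -0.13 to 0.13 over 8 pairs. These correlations are a description of libraries that share depth, scaling and batch, and the mean of the 9 members had an r of 0.226 with reads in genes and 0.385 with the number of genes detected.

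Among the 14171 other genes that passed the filter on low counts over all libraries, ENSRNOG00000031979 and ENSRNOG00000031766 had the patterns most like the mean of the 9 members, with r of 0.912 and 0.881 over the 23 libraries. The sources used here pair neither identifier with a name. ENSRNOG00000031979 averaged 5170.2 CPM in T24 sepiapterin libraries and 3932 CPM in T24 controls, and ENSRNOG00000031766 averaged 3532 CPM in T24 sepiapterin libraries and 2864 CPM in T24 controls. ENSRNOG00000006400 and ENSRNOG00000021555 had the most opposed patterns, with r of -0.765 and -0.744.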

How the data were processed

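Poly(A)-selected RNA was sequenced in 23 libraries of 8 groups (3 libraries each, and 2 for the repeated T12 controls). Per the submitters' processing notes, the authors used cutadapt 1.8, STAR 2.5.2b, HTSeq 0.6.1 and the Rnor_6.0 genome. The deposited values are raw read counts per Ensembl gene, 32494 rows and 5 summary lines per library, of which the summary lines entered no library size. No source used here gives the annotation release or the strand setting. Depth was 16991417 to 26588314 reads in genes, which sets the precision of each value: 144 reads for the lowest Mt-nd6.

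The members and gene lists were chosen with earlier results of these data known. All 10 members are named, with the 2 genes most and the 2 least like them. The reference table held no Ensembl identifiers, so lists of nuclear subunits, other mitochondrial genes and cell type markers were not analysed here, and neither were lengths or sequences.

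Counts were scaled by TMM and fitted with edgeR 4.0.16 (quasi-likelihood, robust, filterByExpr with its minimum count of 10) in R 4.3.3, over 21 libraries (7 groups, 14 residual df). T24 controls were compared with the repeats over 8 libraries, and the repeats with the other library of each sample over 4, with sample number as a block. Genes were called at a Benjamini-Hochberg adjusted p under 0.05 over all genes tested. Across groups, numbers given in accession order pair no samples. Alternatives were other scalings, DESeq2 1.42.0, no filter, separate fits, T12 controls by file header, summed pairs and leaving out each library.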

Additional observations from a re-analysis of the deposited data

Results flagged for a closer look

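Mt-nd3 lay in opposite directions at 2 times without overlap between the groups. At T12 all sepiapterin libraries were below all controls, with a log2 fold change of -0.13, and at T24 all were above, with 0.48. The difference between the times, 0.61 ± 0.15 on the log2 scale, did not pass the edgeR test (adjusted p 0.096). With T12 controls by file header the T12 groups overlapped and the value was -0.030, so the opposite direction without overlap holds by title only.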

How the results depend on the processing

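Fitted on the libraries of a comparison alone, edgeR called 2 members at T24 in place of 6, 2 in the average over times in place of 0, 1 between T12 and T6 controls in place of 0, and 3 between T24 controls and the T12 repeats in place of 1. Over all genes these fits called 196, 656, 1523 and 1434, in place of 585, 144, 655 and 757. DESeq2 called 3 members in the average, 2 for T24 minus T12, 2 between T24 controls and repeats, and 4 between library pairs in place of 8. It called 459, 163, 692 and 277 genes there. Library size alone as scaling gave 2 members and 792 genes between T24 controls and repeats. With T12 controls by file header, 1 member was called at T12, 1 for T24 minus T12 and 0 between T24 controls and repeats, among 10, 143 and 79 genes. Without the replicate block, 5 members and 988 genes were called between library pairs. The file-header grouping turned the sign of Mt-nd6 at T12 (0.70; 0.28 with pairs summed), in the average (0.14), between T12 and T6 controls (-0.34) and between T24 controls and repeats (-0.35), that of Mt-nd4l at T12 (0.16; 0.042 summed), between T12 and T6 controls (-0.10) and between T24 controls and repeats (-0.30), and, between T12 and T6 controls, that of Mt-co1 (-0.024), Mt-co2 (-0.014) and Mt-co3 (-0.051). Mt-co2 there also had -0.0037 with pairs summed and -0.016 with library size alone. Mt-co3 at T12, at 0.0039, turned to -0.0044 with the members left out of the scaling. Leaving out each library in turn gave 0 to 7 members at T24, 0 to 3 in the average, 0 to 4 for T24 minus T6, 0 to 5 for T24 minus T12, 0 to 1 between T12 and T6 controls and 0 to 3 between T24 controls and repeats. Among the log2 values given in the text, those that changed sign with a library left out ran at T6 from -0.025 to 0.080 for Mt-nd1, -0.024 to 0.056 for Mt-nd3, -0.033 to 0.14 for Mt-nd6, -0.024 to 0.077 for Mt-co2 and -0.019 to 0.075 for Mt-co3. At T12 they ran from -0.14 to 0.019 for Mt-nd4l, -0.23 to 0.11 for Mt-nd6 and -0.055 to 0.061 for Mt-co3, between T12 and T6 controls from -0.045 to 0.052 for Mt-co2, and between T24 controls and repeats from -0.058 to 0.12 for Mt-nd4l. Of the 99 member values outside the library pairs, given in the text or not, 31 changed sign under an alternative or a left-out library, of which 1 had been called, Mt-nd6 between T24 controls and repeats. The cause was not tested, beyond that separate fits use fewer libraries. With CPM by total reads in genes, the one alternative run for levels, the summed level of the 10 members moved by less than 1 SD in each group. In the comparisons of T6, T12 minus T6, T6 with T0 and sepiapterin T12 with T6, 0 members were called under each alternative.

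Counts over all genes moved by over 1.5 times as follows. 0 at T6 became 1 with separate fits, and 3 at T12 became 66 with no filter, 227 with DESeq2, 16 with separate fits and 10 with file headers. 585 at T24 became 196 with separate fits, and 144 in the average became 227 with no filter, 459 with DESeq2 and 656 with separate fits. The 0 for T12 minus T6 became 2 with separate fits, and 0 for T24 minus T6 became 18 with no filter, 34 with DESeq2, 5 with file headers and 4 with summed pairs. 33 for T24 minus T12 became 63 with no filter, 163 with DESeq2, 9 with separate fits and 143 with file headers, and 3035 between T6 and T0 controls became 1644 with separate fits. 655 between T12 and T6 controls became 1523 with separate fits, 167 with file headers and 342 with summed pairs, and 614 between T12 and T6 sepiapterin libraries became 1035 with separate fits. 757 between T24 controls and repeats became 1256 with no filter, 1434 with separate fits and 79 with file headers, and 2527 between pairs became 277 with DESeq2 and 988 with no block. Leaving out 1 library gave 0 to 309 genes at T12, 11 to 1463 at T24, 33 to 446 in the average, 0 to 2 for T12 minus T6, 0 to 372 for T24 minus T6, 0 to 567 for T24 minus T12, 77 to 1398 between T12 and T6 controls, 98 to 561 between T12 and T6 sepiapterin libraries and 22 to 1208 between T24 controls and repeats. No leave-one-out was possible for the library pairs, which then have no residual degrees of freedom. Mt-nd6 rests on the fewest reads of the tested members.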
